A study of Mus musculus with 12 samples.

Results

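The 10 genes described here are the core of the machinery that decides whether a cell leaves G1. They are 3 inhibitors of the CIP/KIP family (Cdkn1a, Cdkn1b and Cdkn1c), 2 inhibitors of the INK4 family (Cdkn2c and Cdkn2d), the 3 D cyclins (Ccnd1, Ccnd2 and Ccnd3) and their kinases Cdk4 and Cdk6. The members were chosen by name, and every probe set annotated to exactly 1 of these symbols was taken. That gave 26 of the 45101 probe sets on the array. Of these, 22 were bright enough to test among 27003 tested in all, and the other 4 all belonged to Ccnd2.

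D cyclins carry growth signals into the cell cycle: they bind Cdk4 or Cdk6, and the active kinase phosphorylates the retinoblastoma protein, which then releases E2F factors and allows entry into S phase. INK4 proteins bind Cdk4 and Cdk6 and keep them from D cyclins, whereas CIP/KIP proteins act mainly on cyclin E and cyclin A complexes with Cdk2. Rictor is a defining subunit of mTOR complex 2, which phosphorylates Akt. Akt restrains FoxO factors, which can induce Cdkn1b, and Cdk6 is the D cyclin kinase best known for its role in MLL-rearranged leukaemia.

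The study compared leukaemia cells with a Rictor deletion (RictorΔ/Δ) against Rictor wild-type controls in mice whose leukaemia was driven by an MLL fusion, either MLL-AF9 or MLL-NRIP3. Each of the 4 groups had 3 Affymetrix arrays: MLL-AF9 control, MLL-AF9 RictorΔ/Δ, MLL-NRIP3 control and MLL-NRIP3 RictorΔ/Δ. All groups were cells labelled K+G–, sorted from the bone marrow of recipients of a first bone marrow transplant once CD45.2+ cells exceeded 50% of white cells in blood. The title of the series places the question in quiescence and stemness of leukaemia stem cells. The strain and age of the mice, and the Cre and promoter behind the deletion, were not given in the sources used here, and the labels name peripheral blood as the host tissue although the sorted cells came from marrow. No label states whether replicate arrays represent different animals; the p-values below thus measure only the spread between arrays, which may be technical.

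Promoter sequence is shown for Cdkn2d and Cdkn1a, because Cdkn2d was one of the genes with a called response and the arrays of both Cdkn1a probe sets separated by genotype in MLL-NRIP3 without a call. RefSeq promoter windows of GRCm38.p6 were at hand for 7 of the 10 genes, as 10 windows of 250 bases before a transcript start. Cdkn1c, Ccnd1 and Ccnd2 had none. Capitals mark a match on either strand to the forkhead motif TGTTTAC, the GC box GGGCGG or the E-box CACGTG; no matches overlapped. The Cdkn2d window is chr9:21291210-21291459 on the minus strand. The Cdkn1a windows, for 2 annotated starts, are chr17:29090729-29090978 and chr17:29093519-29093768, both on the plus strand.
Cdkn2d: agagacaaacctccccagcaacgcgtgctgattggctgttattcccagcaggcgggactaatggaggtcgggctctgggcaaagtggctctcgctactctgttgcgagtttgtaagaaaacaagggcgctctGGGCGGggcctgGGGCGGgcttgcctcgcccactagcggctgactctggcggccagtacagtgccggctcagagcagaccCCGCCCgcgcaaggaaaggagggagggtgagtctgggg
Cdkn1a, upstream start: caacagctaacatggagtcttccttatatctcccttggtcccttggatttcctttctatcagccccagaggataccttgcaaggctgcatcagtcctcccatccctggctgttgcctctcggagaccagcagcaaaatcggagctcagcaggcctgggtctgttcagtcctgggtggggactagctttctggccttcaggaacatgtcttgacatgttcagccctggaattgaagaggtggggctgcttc
Cdkn1a, downstream start: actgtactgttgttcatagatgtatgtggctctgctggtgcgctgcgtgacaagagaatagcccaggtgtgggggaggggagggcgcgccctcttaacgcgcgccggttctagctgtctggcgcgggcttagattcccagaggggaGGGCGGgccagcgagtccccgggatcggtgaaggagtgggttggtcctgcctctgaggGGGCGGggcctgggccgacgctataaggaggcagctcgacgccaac
The Cdkn2d window held 3 GC boxes, which began 118, 106 and 38 bases before the start. The upstream Cdkn1a window held none of the 3 motifs, and the downstream one held 2 GC boxes, 104 and 46 bases before the start. Over all 10 member windows the GC box was found in 7 windows of 6 genes, the E-box in 1 window each of Cdk4 (4 copies) and Cdk6 (1 copy), and the forkhead motif in 1 Ccnd3 window. Of 32851 windows of the same length, 32.7% held the GC box, 6.02% the E-box and 3.17% the forkhead motif. These are matches of letters and not measured binding.

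The deposited values are linear intensities, and the 6 arrays of MLL-AF9 and the 6 of MLL-NRIP3 had separate distributions, with array medians of 8.16 to 8.36 and 13.6 to 14.2. Levels are therefore compared only within a model. Rictor itself gave no check of the labels: none of its 4 tested probe sets was called in either model (limma, adjusted p from 0.105 to 0.984), and whether they lie in the deleted part was not given in the sources used here. In MLL-AF9, 1429810_at and 1441753_at were lower on every RictorΔ/Δ array than on every control, as were 13.9% of all probe sets tested. Their ratios of means were 0.82 and 0.75. In MLL-NRIP3, 1453775_at had a ratio of 2.27 with overlapping groups. In MLL-AF9, Xist (1436936_s_at), which is transcribed from the inactive X chromosome, lay between 2348 and 2441 in controls and between 34.3 and 208 in RictorΔ/Δ arrays, while the Y-linked Eif2s3y (1417210_at) was at 3.43 to 7.81 and 149 to 186. Genotype and sex of the cells cannot be told apart in MLL-AF9. All 6 MLL-NRIP3 arrays read 2509 to 3558 for this Xist probe set and 1.98 to 3.76 for this Eif2s3y probe set. Where responses are compared between the models, model and the sex difference within MLL-AF9 thus cannot be told apart either. MLL-NRIP3 control arrays 1 and 2 stood apart, with a 5′ over 3′ ratio of the Gapdh control probe sets of 0.562 and 0.738 against 0.881 to 0.965 on the other 4 arrays of that model. The mean log2 intensity of their spiked hybridization controls was 11.2 and 10.6, against 9.31 to 9.53.

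The sorted cells held the general leukocyte gene Ptprc, the stem and progenitor cell receptor Kit and the granulocyte enzyme Mpo in every group. Markers of mature neutrophils moved with the deletion in opposite directions: all 9 measured were called higher in MLL-AF9, with summed intensities of 9055 to 13102 in controls and 28067 to 30612 after deletion. In MLL-NRIP3 3 of the 9 were called lower, and the sums were 4871 to 21195 against 1651 to 1969. Monocyte and macrophage markers were called lower in MLL-AF9 for 5 of 6 genes. In MLL-NRIP3 none of the 6 was called and none lay above 0, with a median of -0.24 on the log2 scale used below. Both tested eosinophil markers were called lower in MLL-AF9, with summed intensities of 742 to 925 in controls and 166 to 225 after deletion. Summed B cell markers were 1192 to 1350 in MLL-AF9 controls and 1023 to 1108 after deletion, with 1 of 2 tested called lower. In MLL-NRIP3 they were 206 to 1121 in controls and 44.3 to 70.6 after deletion, again with 1 of 2 tested called lower. Mast cell and basophil markers summed to 267 to 323 and 416 to 1758 in that model, with none of 2 tested called. Summed T cell markers were at most 30.1 and summed erythroid markers at most 38.4 on all 12 arrays. Cd34, a progenitor antigen, was called lower in MLL-AF9 (-0.44, limma adjusted p = 0.024, on the log2 scale used below) and higher in MLL-NRIP3 (1.41, limma adjusted p = 0.040). The part of these cells in the results below was not tested, and in bulk samples fewer cells of a type and less RNA per cell cannot be told apart.

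In MLL-AF9 arrays, 2 of the 22 tested probe sets were called, both higher after Rictor deletion: Cdkn1c and Cdkn2d. A probe set was called at an adjusted p under 0.05 in limma with Benjamini-Hochberg adjustment over all 27003 probe sets, of which 5.61% were called (2.70% higher, 2.91% lower). At an unadjusted p under 0.05 there were 8 of the 22, against 19.4% of all tested. In MLL-NRIP3 none of the 22 was called against 0.878% of all tested; 5 had an unadjusted p under 0.05, against 16.8% of all tested. With all 12 arrays in one fit, which called 11.9% of all probe sets in MLL-NRIP3, 2 of the 22 were called there, both Cdkn1a. In MLL-AF9 that fit called 0.922% of all probe sets and none of the 22. The median fold change of the 22 was -0.04 in MLL-AF9 and -0.02 in MLL-NRIP3, beside -0.01 and 0.00 over all probe sets tested. Fold changes are differences of log2(intensity + 16), RictorΔ/Δ minus control, and so understate changes of dim probe sets.

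**Figure D1:**
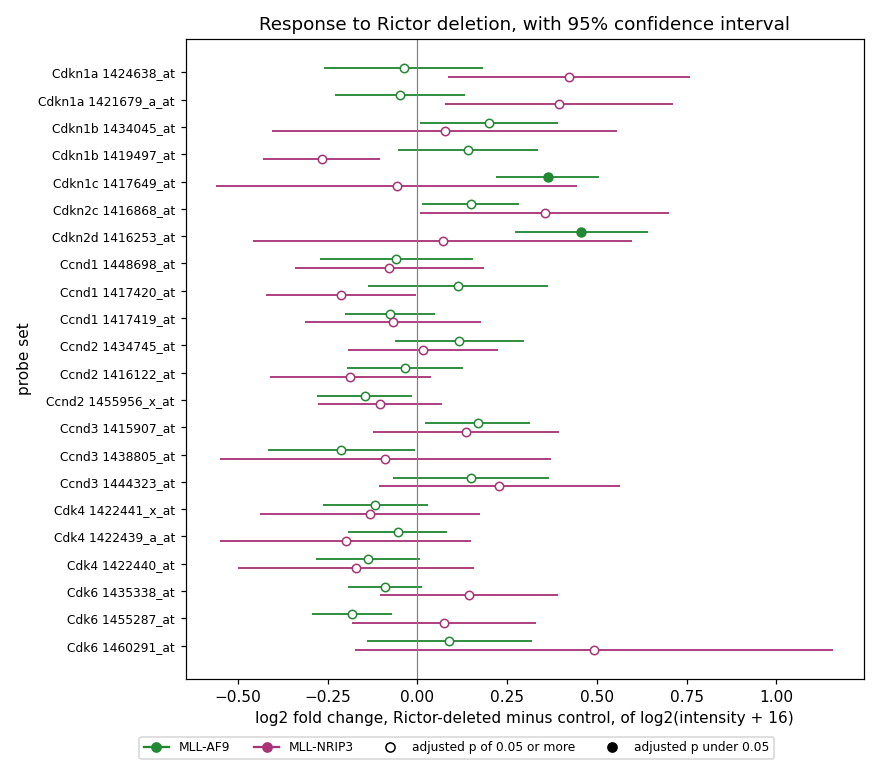
Response of each of the 22 tested probe sets to Rictor deletion on the log2(intensity + 16) scale, RictorΔ/Δ minus control; points are limma estimates, lines are 95% confidence intervals, and filled points have an adjusted p under 0.05. Only Cdkn1c and Cdkn2d in MLL-AF9 are filled, at 0.36 and 0.46, and the widest interval is that of Cdk6 1460291_at in MLL-NRIP3.

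Cdkn1c, the CIP/KIP inhibitor known for keeping blood stem cells quiescent, rose in MLL-AF9 cells after deletion. Its single probe set (1417649_at) read 10.6, 9.13 and 10.7 on the control arrays and 15.9, 20.8 and 16.3 on the RictorΔ/Δ arrays. All 3 RictorΔ/Δ values lay above all 3 controls. The means were 10.2 ± 0.88 and 17.7 ± 2.73 (SD, n = 3 each), a ratio of 1.74. On the log2(intensity + 16) scale the difference was 0.36 ± 0.07 (SE; 95% confidence interval 0.22 to 0.51; limma adjusted p = 0.0082). The signal is dim, so the pseudocount sets its size: 0.74 with a pseudocount of 1 and 0.14 with 64. With all 12 arrays in one fit, where the wider spread of the MLL-NRIP3 arrays enters, the limma adjusted p was 0.68.

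In MLL-NRIP3 cells the same Cdkn1c probe set read 95.8, 79.7 and 149 on control arrays and 81.0, 111 and 112 after deletion. Those groups overlapped, with control array 3 the highest and control array 2 the lowest of the 6. The difference was -0.06 ± 0.22 (SE; 95% confidence interval -0.56 to 0.45; limma adjusted p = 0.92). The response in MLL-NRIP3 minus that in MLL-AF9 was -0.42 ± 0.25 (SE), with a limma adjusted p of 0.42, so the responses were not shown to differ between the models. Without control arrays 1 and 2 that difference was -0.87 (limma adjusted p = 0.040), and there the lone remaining control is assumed to vary like the other arrays. Without control array 3 it was -0.20 (limma adjusted p = 0.56), and the MLL-NRIP3 response of Cdkn1c was then 0.17.

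Cdkn1a, the CIP/KIP inhibitor induced by p53, was not called in either model in the fits by model. The brighter probe set (1424638_at) read 135, 110 and 116 on MLL-NRIP3 control arrays and 149, 164 and 187 on RictorΔ/Δ arrays. The other one (1421679_a_at) read 59.5, 57.0 and 67.7 against 87.7, 78.5 and 90.9. For both probe sets every RictorΔ/Δ value lay above every control value, as for 3 of the 22 members in MLL-NRIP3 and 9.26% of all probe sets tested. Their differences were 0.42 ± 0.15 and 0.39 ± 0.14 (SE), with a limma adjusted p of 0.21 for each. In the fit of all 12 arrays the limma adjusted p was 0.043 and 0.027, in a fit that called 11.9% of all probe sets. Array weights, with which 20.9% of all probe sets were called, moved the brighter probe set to 0.35 (limma adjusted p = 0.055) and the dimmer one to 0.45 (limma adjusted p = 0.018). With a replicate block the limma adjusted p was 0.28 and 0.27. The differences were 0.46 and 0.28 without control arrays 1 and 2. Without control array 3 they were 0.40 and 0.45 (limma adjusted p = 0.21 and 0.14).

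In MLL-AF9 the Cdkn1a probe sets differed by -0.04 ± 0.10 and -0.05 ± 0.08 (SE), with overlapping groups and limma adjusted p of 0.89 and 0.81. The 1424638_at values there were 39.2, 44.0 and 32.6 in controls and 41.0, 32.7 and 37.5 after deletion. MLL-NRIP3 minus MLL-AF9, the response differed by 0.46 ± 0.17 and 0.44 ± 0.14 (SE; limma adjusted p = 0.18 and 0.12). With array weights, which called 17.1% of all probe sets for this difference, they were 0.41 (limma adjusted p = 0.084) and 0.51 (limma adjusted p = 0.017). None of the 22 probe sets was called for a difference of responses, against 3.31% of all tested, and 3 had an unadjusted p under 0.05 (17.6% of all tested): both of Cdkn1a and 1 of Cdkn1b.

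Cdkn1b, the CIP/KIP inhibitor kept low by Akt through FoxO factors, had 2 probe sets, neither called in the fits by model. Both estimates were positive in MLL-AF9. In MLL-NRIP3 their signs differed, but the probe sets were not shown to disagree. The confidence interval of 1434045_at there (-0.40 to 0.56) held the estimate of 1419497_at, -0.27. The bright one (1434045_at) read 374, 399 and 320 on MLL-AF9 control arrays and 437, 380 and 443 after deletion. Those groups overlapped through RictorΔ/Δ array 2, and the difference was 0.20 ± 0.09 (SE; limma adjusted p = 0.24). In MLL-NRIP3 it read 128, 141 and 233 in controls and 182, 178 and 156 after deletion. Control array 3 was the highest of the 6 and control arrays 1 and 2 the lowest, and the difference was 0.08 ± 0.21 (SE; limma adjusted p = 0.89). Without control arrays 1 and 2 it was -0.41, with the lone control assumed to vary like the others, and without control array 3 it was 0.32.

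The dim Cdkn1b probe set (1419497_at) read 13.6, 12.4 and 16.6 on MLL-NRIP3 control arrays and 8.90, 8.84 and 9.43 after deletion. All 3 RictorΔ/Δ values were below all controls, as for 2 of the 22 members and 12.4% of all probe sets tested. The difference was -0.27 ± 0.07 (SE; limma adjusted p = 0.12; with array weights 0.016). With a pseudocount of 1 the difference was -0.59, and with 64 it was -0.10. In MLL-AF9 it was 0.14 ± 0.09 (SE; limma adjusted p = 0.43), with overlapping groups. The response of this probe set differed between models by -0.41 ± 0.12 (SE; limma adjusted p = 0.096).

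Cdkn2d, an INK4 inhibitor of Cdk4 and Cdk6, had the other called response. In MLL-AF9 it (1416253_at) read 216, 225 and 185 on control arrays and 318, 282 and 275 on RictorΔ/Δ arrays. The groups did not overlap, and RictorΔ/Δ array 1 was the highest. The means were 209 ± 20.7 and 292 ± 23.0 (SD, n = 3 each), a ratio of 1.40. The log2 difference was 0.46 ± 0.08 (SE; 95% confidence interval 0.27 to 0.64; limma adjusted p = 0.0094). In the fit of all 12 arrays its limma adjusted p was 0.57.

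In MLL-NRIP3, Cdkn2d read 504, 362 and 706 on control arrays and 431, 563 and 618 after deletion. The controls spanned the whole range of the RictorΔ/Δ arrays. The difference was 0.07 ± 0.23 (SE; limma adjusted p = 0.91), and it was -0.40 without control arrays 1 and 2 but 0.30 without control array 3. Between models the response of Cdkn2d differed by -0.39 ± 0.27 (SE; limma adjusted p = 0.51), by -0.86 without control arrays 1 and 2 (limma adjusted p = 0.057) and by -0.15 without control array 3 (limma adjusted p = 0.73). Both called genes rose on the arrays where the neutrophil markers were higher, Xist was low and Eif2s3y was high; the part of each in their rise was not tested.

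Cdkn2c, the other INK4 member, lay higher after deletion in both models without being called. It (1416868_at) read 824, 899 and 918 on MLL-AF9 control arrays and 911, 993 and 1028 after deletion. The difference was 0.15 ± 0.06 (SE; limma adjusted p = 0.22), and RictorΔ/Δ array 1 fell within the controls. In MLL-NRIP3 the values were 1177, 831 and 1276 against 1302, 1435 and 1409. Here the groups did not overlap, with control array 2 far below the rest. The difference was 0.35 ± 0.15 (SE; limma adjusted p = 0.29), and array weights gave 0.44 (limma adjusted p = 0.033). It was 0.11 without control arrays 1 and 2 and 0.48 without control array 3.

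**Figure D2:**
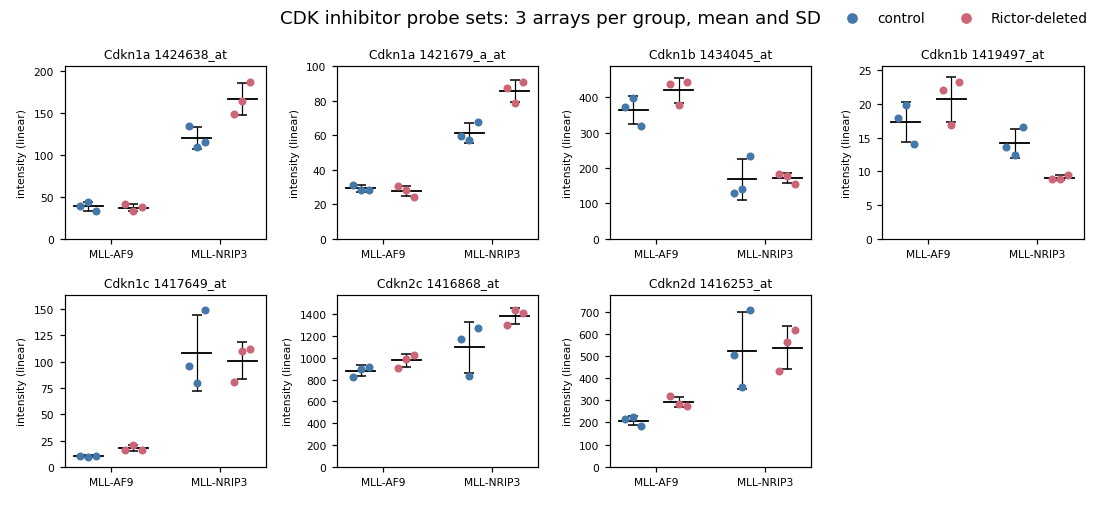
Linear intensities of the 7 CIP/KIP and INK4 probe sets on each array, by model and genotype, with the mean and SD of 3 arrays; each panel has its own axis from 0. Cdkn1c and Cdkn2d separate by genotype in MLL-AF9. Both Cdkn1a panels, Cdkn2c and Cdkn1b 1419497_at separate in MLL-NRIP3.

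Among the 9 tested probe sets of the D cyclins none was called in either model, and their differences ran from -0.21 to 0.17 in MLL-AF9 and from -0.21 to 0.23 in MLL-NRIP3. At an unadjusted p under 0.05 in limma there were 3 of 9 in MLL-AF9 (19.4% of all tested) and 1 of 9 in MLL-NRIP3 (16.8%). Ccnd3, a D cyclin with known roles in lymphoid and granulocyte development, had 1 probe set (1415907_at) at 320, 365 and 358 in MLL-AF9 controls and 405, 389 and 381 after deletion. Its groups did not overlap, and the difference was 0.17 ± 0.07 (SE; limma adjusted p = 0.19). In MLL-NRIP3 the same probe set read 507, 483 and 469 against 522, 586 and 502, with overlap and a difference of 0.14 ± 0.11 (SE; limma adjusted p = 0.59). The other Ccnd3 probe sets did not share 1 sign in MLL-AF9: 1438805_at was at -0.21 (limma adjusted p = 0.24) and 1444323_at at 0.15 (0.46).

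Ccnd1, a D cyclin that many tumours overexpress, read between 6.80 and 34.9 over its 3 probe sets on all 12 arrays. On 1417420_at the MLL-NRIP3 controls were 14.4, 13.8 and 20.4 and the RictorΔ/Δ arrays 12.2, 11.1 and 11.6. All RictorΔ/Δ values lay below the controls, with a difference of -0.21 ± 0.09 (SE; limma adjusted p = 0.29). In MLL-AF9 the same probe set gave 0.11 ± 0.11 (SE; limma adjusted p = 0.65), and the other Ccnd1 probe sets lay between -0.08 and -0.06 in both models.

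Ccnd2, the D cyclin most responsive to cytokines in blood cells, was dim throughout. Its 3 tested probe sets read between 4.24 and 18.8 over the 12 arrays, and the 4 that were not tested between 1.78 and 10.2. Tested probe sets needed a mean over the 12 arrays of at least 7.70: the nearest above it were 1455956_x_at at 8.40 and 1416122_at at 9.06, and the nearest below was 1448229_s_at at 7.16. The probe set 1455956_x_at was at 14.2, 11.1 and 11.2 in MLL-AF9 controls and 11.3, 8.40 and 8.56 after deletion. RictorΔ/Δ array 1 overlapped the controls, and the difference was -0.15 ± 0.06 (SE; limma adjusted p = 0.21). The other tested Ccnd2 probe sets were at 0.12 and -0.03 in MLL-AF9, with a limma adjusted p of 0.49 and 0.86. In MLL-NRIP3 the 3 tested probe sets ran from -0.19 to 0.02 (limma adjusted p from 0.38 to 0.95).

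Cdk4, which binds the D cyclins, had estimates below 0 for all 3 probe sets in both models, none of them called. In MLL-AF9, 1422440_at read 195, 197 and 188 in controls and 179, 174 and 169 after deletion. It and 1422439_a_at had no overlap between groups, whereas 1422441_x_at did overlap. The 3 differences ran from -0.14 to -0.06 (limma adjusted p from 0.28 to 0.70). In MLL-NRIP3 they ran from -0.20 to -0.13 (limma adjusted p from 0.55 to 0.67), and all groups overlapped. Without MLL-NRIP3 control arrays 1 and 2 the values of 1422441_x_at, 1422439_a_at and 1422440_at were -0.01, 0.02 and 0.01, so the direction did not hold there.

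Cdk6, the other kinase of the D cyclins, had the member probe set closest to a call among those not called in MLL-AF9. On 1455287_at the controls read 1234, 1180 and 1262 and the RictorΔ/Δ arrays 1033, 1121 and 1081. The groups did not overlap, and the difference was -0.18 ± 0.05 (SE; limma adjusted p = 0.065). Over the alternatives run, its limma adjusted p ranged from 0.049 with quantile normalization to 0.72 with all 12 arrays in one fit, with 0.11 under a replicate block and 0.24 without RictorΔ/Δ array 1. A second bright probe set, 1435338_at, read 1538, 1437 and 1540 against 1376, 1420 and 1440, with overlap and a difference of -0.09 ± 0.05 (SE; limma adjusted p = 0.33). Non-overlapping groups were seen for 6 of the 22 member probe sets in MLL-AF9, with 3 higher (11.0% of all tested) and 3 lower (13.9%). The 3 higher ones were Cdkn1c, Cdkn2d and 1 of Ccnd3, and the 3 lower ones were 2 of Cdk4 and 1 of Cdk6.

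In MLL-NRIP3 the bright Cdk6 probe sets were at 0.14 ± 0.11 and 0.07 ± 0.11 (SE; limma adjusted p = 0.55 and 0.78). The dim one, 1460291_at, read 55.1, 52.6 and 136 in controls and 97.9, 130 and 109 after deletion. Control arrays 1 and 2 were the lowest and control array 3 the highest of the 6. The difference was 0.49 ± 0.29 (SE; limma adjusted p = 0.44). It was 0.87 without control array 3 (limma adjusted p = 0.032), where 1158 probe sets were called against 237 with that array kept. Without control arrays 1 and 2 it was -0.26, so its sign turned with which controls were kept. The difference of responses of 1435338_at was 0.23 ± 0.13 (SE; limma adjusted p = 0.37). It was 0.35 without control array 3 (limma adjusted p = 0.046), where 2312 probe sets were called against 893 with that array kept. Without control arrays 1 and 2 it was 0.01.

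**Figure D3:**
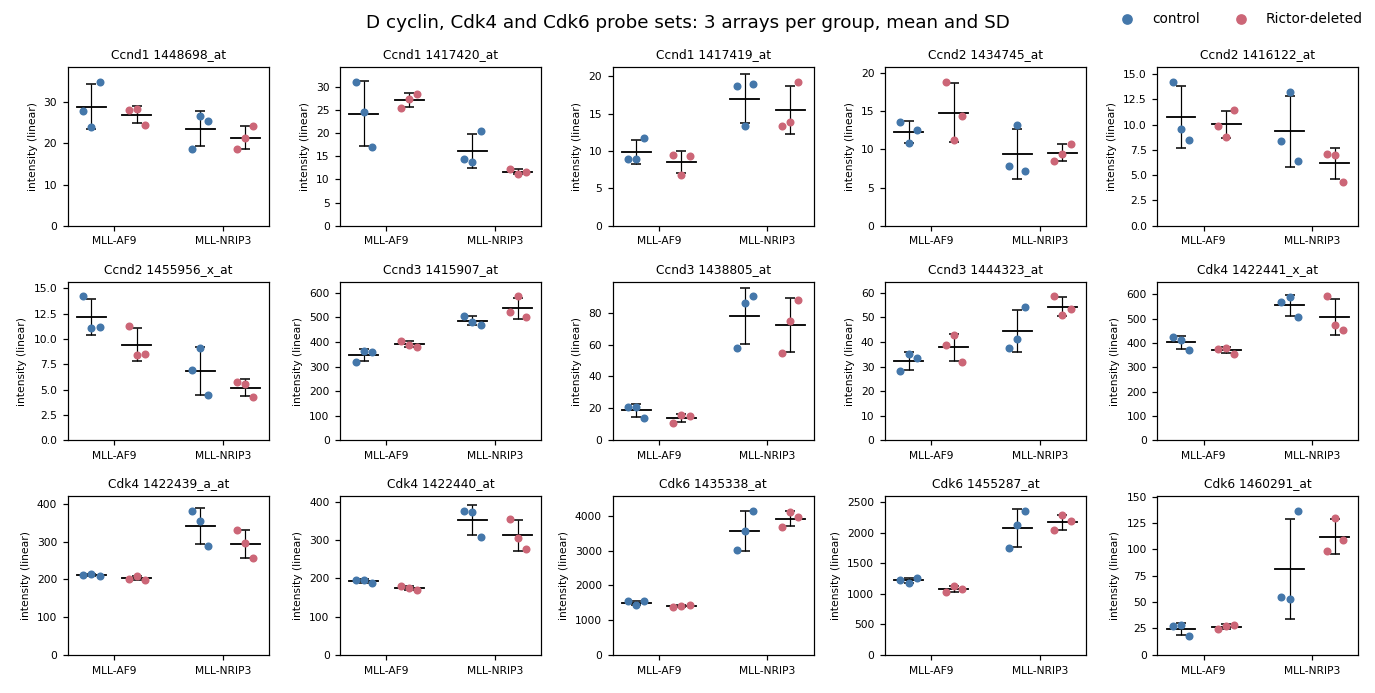
Linear intensities of the 15 tested D cyclin, Cdk4 and Cdk6 probe sets on each array, by model and genotype, with the mean and SD of 3 arrays; each panel has its own axis from 0. Cdk6 1455287_at, Cdk4 1422439_a_at, Cdk4 1422440_at and Ccnd3 1415907_at separate by genotype in MLL-AF9, and Ccnd1 1417420_at in MLL-NRIP3. Cdk6 1460291_at has MLL-NRIP3 control values of 55.1, 52.6 and 136.

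The MLL-NRIP3 controls spread more than the other groups for these genes. The median SD of the 22 probe sets was 0.19 on the log2(intensity + 16) scale in MLL-NRIP3 controls, beside 0.14 over all probe sets tested, and 0.11 in MLL-NRIP3 RictorΔ/Δ arrays. It was 0.10 and 0.09 in MLL-AF9 control and RictorΔ/Δ arrays. Control array 3 exceeded the mean of control arrays 1 and 2 by a median of 0.17 over the 22, against 0.01 over all tested, whose quartiles were -0.14 and 0.17. The excess was over 0.5 for 4 of the 22 and for 5.54% of all tested. The 4 were Cdk6 1460291_at at 1.13, Cdkn1b 1434045_at at 0.73, Cdkn2d at 0.70 and Cdkn1c at 0.67. Neutrophil markers ran the other way, with summed intensities of 21195 and 9408 on control arrays 1 and 2 and 4871 on control array 3. The part of these markers, or of the control probe sets that set arrays 1 and 2 apart, was not tested.

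**Figure D4:**
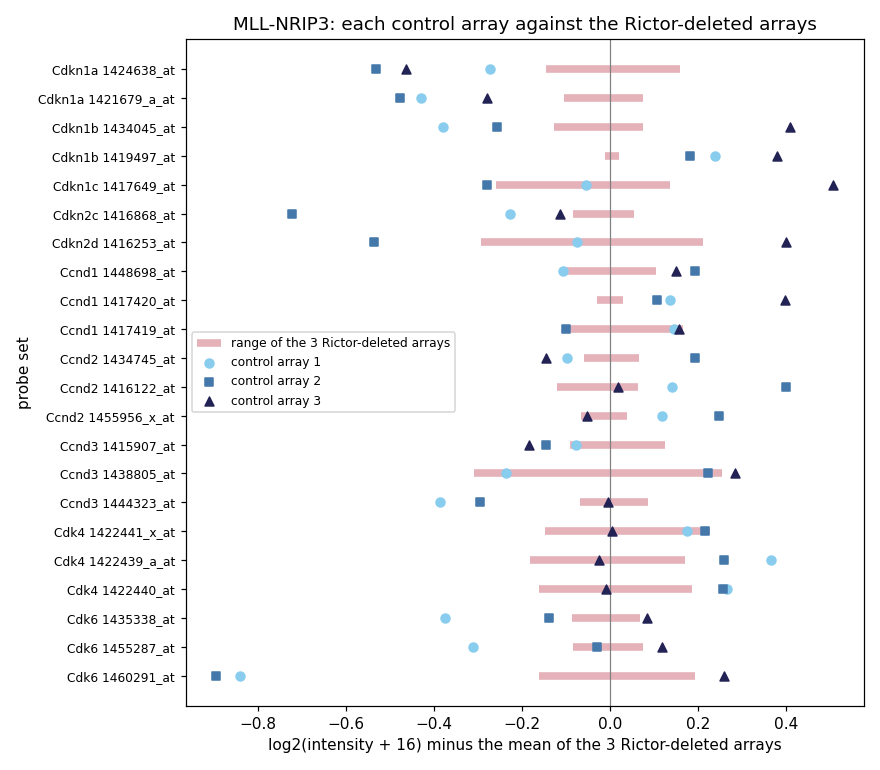
Each MLL-NRIP3 control array minus the mean of the 3 RictorΔ/Δ arrays on the log2(intensity + 16) scale, for the 22 tested probe sets. Control arrays 1 and 2 lie below 0 and control array 3 above 0 for Cdkn1b 1434045_at, Cdkn1c, Cdkn2d and the Cdk6 probe sets. The reverse holds for Cdk4 1422439_a_at, Cdk4 1422440_at and Ccnd2 1455956_x_at. For Cdkn1a all 3 control arrays lie below 0.

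Around these 10 genes, 5 lists of the same pathway were described with 1 probe set per gene, the brightest. Over all 12572 genes so tested, 6.76% were called in MLL-AF9 (3.28% higher, 3.48% lower) and 1.12% in MLL-NRIP3. The lists were the other INK4 inhibitors, G1 kinases and cyclin E; pocket proteins and E2F factors; turnover of CDK inhibitors and D cyclins; transcriptional regulators of the members; and markers of cycling cells. No gene of these lists was called in MLL-NRIP3 in the limma fit of that model alone. In this order, 3, 2, 1, 4 and 3 genes had an unadjusted p under 0.05 there, beside 16.8% of all probe sets. In MLL-AF9 the same limma counts were 2 of 10, 5 of 13, 5 of 15, 7 of 16 and 11 of 19, beside 19.4% of all probe sets. The all-gene median fold change was -0.01 in MLL-AF9 and 0.00 in MLL-NRIP3. Of all probe sets tested, 47.1% lay above 0 in MLL-AF9 and 49.9% in MLL-NRIP3. These shares and those at an unadjusted p are over all probe sets and not 1 per gene.

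None of the 10 genes around the INK4 inhibitors, G1 kinases and cyclin E was called in MLL-AF9, where their median was 0.02 and 2 of 10 had an unadjusted p under 0.05 in limma, near the 19.4% of all probe sets. The smallest p belonged to Ccne2, a cyclin E that drives Cdk2, at 0.24 (limma adjusted p = 0.078). In MLL-NRIP3 it was again Ccne2, at 0.89 (limma adjusted p = 0.15), and the median of the list was 0.10. Among 13 pocket proteins and E2F factors 2 rose in MLL-AF9: E2f2, an activator of S phase genes, by 0.50 (limma adjusted p = 0.0045), and E2f8, an atypical repressor of the family, by 0.31 (limma adjusted p = 0.041). The list's median was 0.05, and in MLL-NRIP3 it was 0.13, with the retinoblastoma gene Rb1 at 0.52 (limma adjusted p = 0.19).

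Of 15 measured genes for the turnover of CDK inhibitors and D cyclins, only Cul4b, a ubiquitin ligase scaffold, was called in MLL-AF9, at -0.27 (limma adjusted p = 0.0497). In MLL-NRIP3 the smallest p was that of Skp1, a subunit of the ligases that mark Cdkn1b for degradation, at 0.28 (limma adjusted p = 0.18). Of 16 measured transcriptional regulators 3 fell in MLL-AF9. They were Foxo3, a FoxO factor downstream of Akt, at -0.43 (limma adjusted p = 0.0084), the TGF-beta effector Smad3 at -0.48 (limma adjusted p = 0.012) and the cytokine effector Stat5b at -0.35 (limma adjusted p = 0.027). Their list had a median of -0.12, and 4 of 16 lay above 0. Smad3 had the smallest p in MLL-NRIP3 too, at -0.99 (limma adjusted p = 0.067).

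Markers of S, G2 and M phase rose for 4 of 19 genes in MLL-AF9, where the 2 inhibitors were called higher as well. Rrm2, which makes deoxyribonucleotides, rose by 0.59 (limma adjusted p = 2.7e-04) and Cdc20, an activator of the anaphase-promoting complex, by 0.50 (limma adjusted p = 0.0081). The mitotic kinase Aurkb rose by 0.44 (limma adjusted p = 0.026) and the mitotic cyclin Ccnb2 by 0.25 (limma adjusted p = 0.032). None of the 19 was called lower, 16 lay above 0, and the median was 0.18. In MLL-NRIP3 16 of 19 also lay above 0, with a median of 0.13 and none called; Pcna, the clamp of DNA polymerase, had the smallest p at 0.28 (limma adjusted p = 0.18). Without MLL-NRIP3 control arrays 1 and 2 that median was 0.02.

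The pathway calls in MLL-AF9 depended on the fit. With all 12 arrays in one fit, which called 0.922% of all probe sets there, 1 cycling marker was called and no gene of the other 4 lists. With the replicate number as a block, the turnover list went from 1 call to 0 and the pocket and E2F list from 2 to 1. In MLL-NRIP3 the fit of all 12 arrays called 11.9% of all probe sets, and genes in every list: 3 higher around the INK4 inhibitors, G1 kinases and cyclin E, 2 higher among E2F and pocket genes, 1 higher in turnover, 1 higher and 3 lower among regulators, and 2 higher among cycling markers.

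For the called genes, the genes with the most similar pattern were found by Pearson correlation over the 12 arrays, after each model's mean was subtracted, among 12571 others. For Cdkn1c they were Cldn12 (r = 0.938), Sgo2a (0.926) and Ppp1r3b (0.925). For Cdkn2d they were Sgo1 (0.917), Ppp1r3b (0.910) and Klf3 (0.892). The 12 points share the arrays, including MLL-NRIP3 control array 3, and the r values are descriptions of the highest among many.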

How the data were processed

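Expression was measured on 12 Affymetrix arrays, 3 for each of 4 groups. The deposited intensity values are linear and cover 45101 probe sets; how the authors summarised and normalized them was not given in the sources used here, and per the labels the cRNA was made from 7 µg of total RNA. Values on the 6 arrays within a model follow nearly 1 common distribution. Probe sets were named through the platform's annotation: 34958 had 1 symbol, 932 several and 9211 none.

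Values were taken as log2(intensity + 16). Control probe sets and those with a mean over the 12 arrays under the 40th percentile (7.70) were left out. Each model was fitted apart in limma 3.58.1 (R 4.3.3) with an intensity trend, two-sided, with Benjamini-Hochberg adjustment over the 27003 probe sets tested. The models differ in spread, with a median SD per probe set of 0.08 and 0.06 in MLL-AF9 control and RictorΔ/Δ arrays and 0.14 and 0.13 in MLL-NRIP3. The difference of responses was an interaction contrast over all 12 arrays. Summaries used pandas 2.3.3 under Python 3.11.15, and plots matplotlib 3.10.9. Promoter windows came from RefSeq, and the shares of motifs leave out chromosome 18. The number of arrays, 3 per group, limits the precision.

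The members and lists were chosen with earlier results of these data known. The genes named were all members, Rictor, the called genes of each list (at most 4 with the smallest p, or the 1 with the smallest p where none was called) and the 3 genes most like each called member; Xist, Eif2s3y and cell type markers are given as checks. Alternatives were other normalizations, filters, pseudocounts (1 and 64), one fit for all arrays, no trend, array weights, 1 probe set per gene, a replicate block and arrays left out.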

Additional observations from a re-analysis of the deposited data

How the results depend on the processing

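With all 12 arrays in one fit, 249 probe sets were called in MLL-AF9, 0 of them members, and 3214 in MLL-NRIP3, with 2 member probe sets, both of Cdkn1a. Array weights called 5653 in MLL-NRIP3, with 3 members (Cdkn1a, Cdkn1b and Cdkn2c), and 4629 for the difference of responses, with 1 member (Cdkn1a). Leaving out MLL-NRIP3 control arrays 1 and 2 left 36 calls in MLL-NRIP3 and gave 1 member, Cdkn1c, for the difference. The brightest probe set per gene gave 539 calls for the difference among fewer features. Leaving out each array in turn gave 748 to 1377 calls in MLL-AF9 with 2 members each time, 46 to 1158 in MLL-NRIP3 with 0 to 1 members, and 430 to 2312 for the difference with 0 to 2 members. The lowest count in MLL-AF9 came without RictorΔ/Δ array 2. In MLL-NRIP3 and for the difference the highest counts came without control array 3, where Cdk6 supplied the members called. Under the alternatives run, the estimate changed sign at least once for 6 of 22 member probe sets in MLL-AF9, 12 in MLL-NRIP3 and 14 for the difference; no cause was tested. Deviations of same-numbered arrays from their group means had r of -0.13 to 0.06. With 3 arrays per group this cannot decide whether the numbers pair the arrays. The replicate block gave 1324 calls in MLL-AF9, 212 in MLL-NRIP3 and 614 for the difference. Dim probe sets of Ccnd1, Ccnd2 and Cdkn1b (1419497_at) are limited by signal near the pseudocount. The same holds in MLL-AF9 for Cdkn1c and for Ccnd3 1438805_at.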
